A study of Mus musculus with 2 samples.

Results

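The transcripts described here encode 10 subunits of the SWI/SNF chromatin remodelling complex, out of 22020 gene symbols in the table. They were chosen by name: the ATPases Smarca4 and Smarca2, the core subunits Smarcb1, Smarcc1, Smarcc2, Smarcd1, Smarcd2 and Smarce1, and the subunits Arid1a and Pbrm1, which mark separate forms of the complex. Each symbol is represented by its transcript with the highest mean over both libraries. RNA came from LSK cells of 8-week-old C57BL/6 mice, a sorted bone marrow fraction that lacks lineage markers, carries Ckit and Sca1, and holds the blood stem cells and the earliest multipotent progenitors. One library was of p53 KO mice and the other of Utx/p53 DKO mice, so by the labels both lack p53 and the loss of Utx (Kdm6a, an H3K27 demethylase) separates them. The labels give neither the deletion driver nor the number of mice behind a library.

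SWI/SNF complexes use the energy of ATP to slide or evict nucleosomes and so open DNA at enhancers and promoters. A BAF or PBAF complex holds 1 of the ATPases Smarca4 (Brg1) and Smarca2 (Brm) and a scaffold of Smarcc, Smarcd, Smarcb1 and Smarce1 proteins. A further module sets its form: Arid1a or Arid1b in BAF, and Pbrm1 with Arid2, Brd7 and Phf10 in PBAF. Subunits of the complex are often mutated in cancer, and Smarca4-containing complexes are known to be needed for normal and leukaemic blood progenitors.

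The libraries held 17088105 reads (p53 KO) and 19926294 reads (DKO), and values are RPKM, reads scaled by transcript length and read total. With 1 library per genotype there is no replicate and no test: each value describes these libraries only, and intervals are exact 95% counting intervals of whole reads recovered from the RPKM values. Reads were amplified without molecular identifiers, so these intervals cover counting error only. Kdm6a was at 5.32 RPKM (p53 KO) and 1.26 RPKM (DKO), and Trp53 at 19.4 and 12.9 RPKM (587 and 456 reads). Neither library was of mice with intact p53, so these levels cannot show whether Trp53 RNA was lost or kept. Which exons were deleted is not stated in the labels, so values of the whole transcript are no check of the p53 KO label. The libraries also differed in cell type markers: 10 of 10 granulocyte and monocyte genes were at least 2-fold higher in the DKO library, with summed levels of 5350 (p53 KO) and 68772 RPKM (DKO). Of the stem cell and sort gate genes, 7 of 9 were at least 2-fold lower (917 and 390.4 RPKM summed). So were all 7 measured genes of the 9 in the erythroid list (1450.4 and 217 RPKM summed over the 9) and all 9 measured of the 10 B cell and lymphoid progenitor genes (535 and 54.1 RPKM summed over the 10). The unmeasured erythroid genes went opposite ways on few reads. Epor was at 0.192 and 0 RPKM (6 and 0 reads), and Klf1 was higher in the DKO library, at 0.610 and 1.08 RPKM (16 and 33 reads). Of 7 T and NK cell genes, 5 were 2-fold higher and 1 was lower (257 and 182 RPKM summed), and of 6 macrophage and dendritic cell genes, 4 were higher and 1 was lower (44.4 and 83.9 RPKM). The part of these shifts in the subunit values was not tested, and in RNA of mixed cells a smaller share of the cells that use a gene and less RNA per cell cannot be told apart.

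All 10 subunits had reads in both libraries, and all 10 had lower RPKM in the DKO library, as 65.2% of the genes measured did (the 11356 whose mean over both libraries reached 1 RPKM). Their log2(RPKM + 1) difference, DKO minus p53 KO, had a median of -0.79, against -0.24 for all genes measured. By a rule of at least 2-fold on that scale, 2 of 10 subunits (Smarce1 and Smarcd1) were lower, where 13.5% of all genes were, and 0 were higher, where 6.6% of all genes were. The count of subunits lower by 2-fold is thus close to the background, while 9 of 10 subunits lay below the all-gene median. After centring on that median no subunit was 2-fold lower or higher, against 8.76% and 9.63% of all genes. The sign of a difference was not the same under every scaling: when the gfold constants of the file header were applied, which raises the all-gene median to 0.28, Smarca2, Smarcd2 and Pbrm1 were higher in the DKO library and 7 subunits were lower. Pbrm1 was also slightly higher after centring (0.11) and with upper-quartile scaling (0.02), and the other 9 subunits stayed lower in both.

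**Figure D1:**
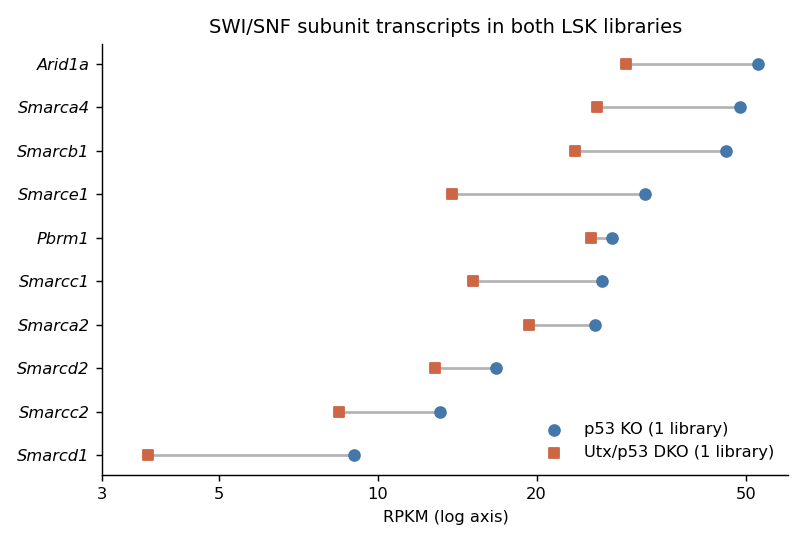
RPKM of the 10 SWI/SNF subunits (horizontal log axis) in the p53 KO library (circles) and the Utx/p53 DKO library (squares), 1 library each, ordered by the p53 KO level. Every square lies left of its circle, from 52.6 and 29.5 RPKM for Arid1a to 9.0 and 3.66 RPKM for Smarcd1, and the gap is smallest for Pbrm1.

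The ATPase genes differed in level and in ratio. Smarca4 was at 48.7 RPKM in the p53 KO library against 26.1 RPKM in the DKO library (5296 and 3304 reads), the second highest of the 10 in each. The ratio of RPKM, always DKO divided by p53 KO here, was 0.535 for Smarca4 (95% interval 0.512 to 0.559), and its 3 transcripts in the table all gave 0.535 after rounding. On the log2(RPKM + 1) scale its difference of -0.88 was undercut by 17.2% of all genes measured. Smarca2 was at 25.9 and 19.3 RPKM (867 and 756 reads), a ratio of 0.748 (0.677 to 0.825), and its log2 difference of -0.40 had 39.8% of all genes below it. The interval of Smarca2 lay wholly above that of Smarca4.

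The Smarca2 value stands for a short transcript. The row with the highest mean had a length of 1962 bases, which equals that of the matching GENCODE M21 transcript, whose coding part holds 708 bases against 4749 in the full-length transcript. Of its exon bases, 86.1% also lie in exons of the full-length transcript, so both rows can count the same reads. The full-length row was at 14.4 RPKM (p53 KO) and 11.1 RPKM (DKO), from 1426 and 1290 reads, a ratio of 0.776 (0.719 to 0.837). The short row stood 1.8-fold above the full-length row in the p53 KO library against 1.74-fold above it in the DKO library. Use of the short transcript and uneven read coverage along the full-length one, both possible after oligo-dT priming, cannot be told apart from these values.

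Among the core subunits, Smarcb1 (Snf5), which binds the nucleosome's acidic patch and is lost in rhabdoid tumours, was at 45.8 RPKM (p53 KO) and 23.6 RPKM (DKO), from 1275 and 768 reads. Its ratio was 0.517 (0.472 to 0.565). Smarce1 (Baf57), a subunit with an HMG box that contacts DNA, was at 32.2 and 13.8 RPKM (1605 and 803 reads), a ratio of 0.429 (0.394 to 0.467). Its log2 difference of -1.16 was the lowest of the 10, and 9.87% of all genes measured lay below it. By level Smarce1 had rank 4 of the 10 subunits with p53 KO and rank 7 with DKO. RefSeq lists a Smarce1 pseudogene, Smarce1-ps1, so reads of the gene may be shared with that copy.

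The scaffold paralogs Smarcc1 (Baf155) and Smarcc2 (Baf170) pair with each other or with themselves at the base of the complex. Smarcc1 was at 26.6 RPKM (p53 KO) and 15.1 RPKM (DKO), from 2579 and 1709 reads, with a ratio of 0.568 (0.534 to 0.604). Smarcc2 was at 13.1 and 8.44 RPKM (1030 and 772 reads), with a ratio of 0.643 (0.585 to 0.706), and its 3 transcripts gave ratios between 0.632 and 0.643. The intervals of these paralogs overlapped, at 0.585 to 0.604.

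The Smarcd (Baf60) paralogs, which link the complex to transcription factors, differed most in ratio among the paralog pairs within the 10. Smarcd1 was at 9.0 RPKM (p53 KO) and 3.66 RPKM (DKO), from 485 and 230 reads, the lowest level of the 10 in each library. Its ratio of 0.407 (0.346 to 0.477) was also the lowest of the 10, and its log2 difference was -1.10. Smarcd2, the family member known to be needed for neutrophil granule formation, was at 16.7 and 12.9 RPKM (683 and 612 reads), a ratio of 0.768 (0.688 to 0.858) and a log2 difference of -0.36. Smarcd3, the paralog known from heart muscle and not among the 10, was at 1.02 RPKM in each library (30 and 35 reads), a ratio of 1.00 (0.597 to 1.69).

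Arid1a (Baf250a), the largest subunit and the one that defines most BAF complexes, had the highest level of the 10 in each library, at 52.6 and 29.5 RPKM (7350 and 4810 reads). Its ratio was 0.561 (0.541 to 0.582) and its log2 difference -0.81. Pbrm1 (Baf180), the PBAF subunit with several bromodomains that bind acetylated histones, was at 27.9 and 25.4 RPKM. Its ratio of 0.912 (0.872 to 0.953, from the smaller of the 2 whole-read solutions, 3865 and 4109 reads) was the highest of the 10. Pbrm1 stood alone above the all-gene median, with a log2 difference of -0.13 that exceeded the differences of 57.1% of all genes measured, and by level it had rank 5 with p53 KO and rank 3 with DKO. In the order of ratios, neighbours overlapped in their counting intervals except at 2 steps, between Smarce1 and Smarcb1 and between Smarcd2 and Pbrm1.

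**Figure D2:**
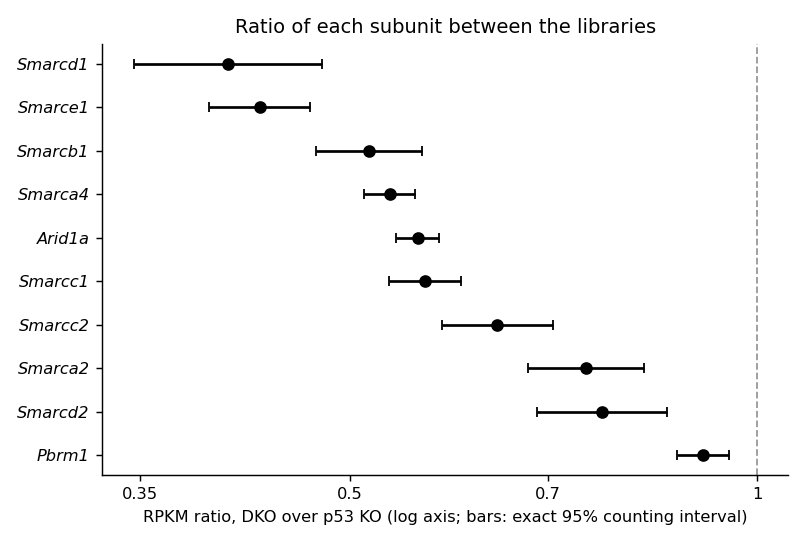
RPKM ratio of each subunit, DKO over p53 KO (horizontal log axis), with exact 95% counting intervals as bars and a dashed line at 1. Smarcd1 (0.407) and Smarce1 (0.429) lie lowest, and Pbrm1 (0.912) lies apart from the next subunit, Smarcd2 (0.768).

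The median difference of all genes varied with transcript level and length. When the genes measured were divided by mean level into 10 equal bins, those in the bin of Smarca4, Smarcb1 and Arid1a had a median log2 difference of -0.10. In 10 bins of length, those in the bin of Smarca4, Smarcc1, Arid1a and Pbrm1, the longest, had -0.40. Centred on genes of like level, the median of the 10 subunits was -0.65, and centred on genes of like length it was -0.39. Smarce1, Smarcb1 and Smarcd1 remained the lowest after centring on length, at -0.84, -0.79 and -0.78, while Pbrm1 was then at 0.27. Arid1a and Smarca4, both long, moved to -0.41 and -0.47.

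**Figure D3:**
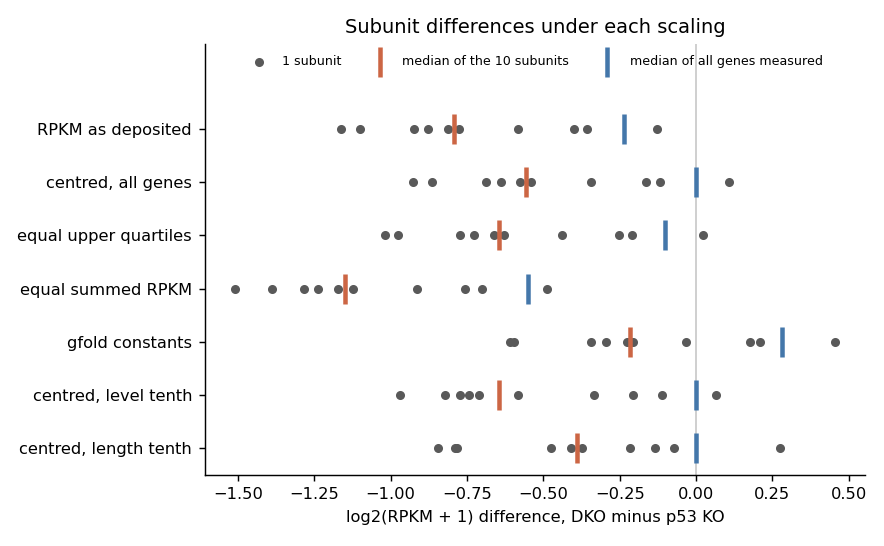
Difference in log2(RPKM + 1), DKO minus p53 KO, of the 10 subunits (dots) under each scaling (rows), with the median of the 10 and of all genes measured as vertical bars. The bar of the subunits lies left of the bar of all genes in every row, at -0.79 and -0.24 for RPKM as deposited and at -0.22 and 0.28 with the gfold constants.

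Shares of paralogs within a library do not depend on the scaling between libraries, and 7 pairs that can take the same or an alternative place in the complex were compared. Smarca4 made up 65.3% of the summed RPKM of Smarca4 and Smarca2 in the p53 KO library (63.7 to 67%) against 57.4% in the DKO library (55.4 to 59.4%). The Smarca4 to Smarca2 ratio in the DKO library was 0.715 times that in the p53 KO library (95% interval 0.642 to 0.797). With the full-length Smarca2 row the shares were 77.2% and 70.1%, and the ratio of ratios was 0.690 (0.632 to 0.753). Smarcc1 held 67% of its pair in the p53 KO library against 64.2% in the other, a ratio of ratios of 0.884 with an interval (0.790 to 0.990) whose upper end is close to 1. Smarcd2 held 65% of the Smarcd2 and Smarcd1 pair in the p53 KO library (62.3 to 67.7%) against 77.8% in the DKO library (75.1 to 80.4%), a 1.89-fold move (1.55 to 2.30) toward Smarcd2. The Smarcd3 to Smarcd1 ratio was 2.46 times as high in the DKO library (1.43 to 4.26), on few Smarcd3 reads.

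Arid1a and Arid1b are alternative subunits of BAF, and Arid1b was the lower of the pair in each library, at 8.96 and 3.17 RPKM (1734 and 715 reads). Its ratio of 0.354 (0.324 to 0.386) lay below those of all 10 listed subunits, though its interval overlapped that of Smarcd1 (0.346 to 0.477). Arid1a therefore held 85.4% of the pair in the p53 KO library (84.8 to 86.1%) against 90.3% in the DKO library (89.6 to 91%), a ratio of ratios of 1.59 (1.44 to 1.75). Pbrm1 relative to Arid1a gives the PBAF-defining against the main BAF-defining transcript. Pbrm1 made up 34.6% of that pair in the p53 KO library (33.7 to 35.5%) against 46.2% in the DKO library (45.2 to 47.3%), and the Pbrm1 to Arid1a ratio was 1.62 times as high (1.53 to 1.72). Against Arid1b, the Pbrm1 ratio was 2.58 times as high in the DKO library (2.34 to 2.85). These intervals hold counting error alone, and the spread of such shares between mice is unknown.

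**Figure D4:**
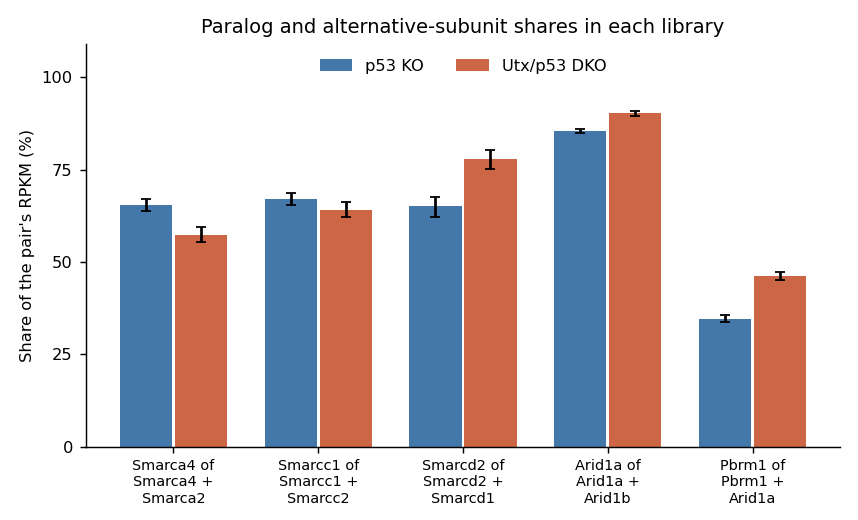
Share of the first named gene in the summed RPKM of each pair (vertical axis, percent) in the p53 KO and the Utx/p53 DKO library, with exact 95% counting intervals as bars. Smarcd2 and Pbrm1 take larger shares in the DKO library (77.8% and 46.2% against 65% and 34.6%), and Smarca4 a smaller one (57.4% against 65.3%).

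A further 19 known subunits were all in the table, and 15 of them had a mean of at least 1 RPKM. Of these 15, 1 was at least 2-fold lower (Arid1b) and 0 were at least 2-fold higher, against 13.5% and 6.6% of all genes. By any amount 9 were lower and 6 higher, against 65.2% lower of all genes, so the counts of lower subunits are not above the background. The 6 higher ones include Smarcd3, with a ratio of 1.00, and Actb. They also include Dpf3, whose mean reached 1 RPKM only through its value in the DKO library. Their median log2 difference was -0.36, and that of all 25 measured subunits, the 10 listed ones included, was -0.54. When all 25 measured subunits were arranged by the form of the complex that holds them, a grouping made after their values were seen, the 4 PBAF subunits had ratios between 0.853 and 1.21. Beside Pbrm1 these were Arid2, the PBAF subunit with an ARID domain, at 14.8 and 12.6 RPKM (ratio 0.853, 0.794 to 0.917), the bromodomain protein Brd7 at 34.7 and 39.1 RPKM (1.13, 1.05 to 1.21), and Phf10, a PHD finger protein, at 8.12 and 9.79 RPKM (1.21, 1.01 to 1.44). None of these 4 counting intervals overlapped that of Arid1a. On the log2(RPKM + 1) scale, 51.6% of all genes measured lay below Arid2, 57.1% below Pbrm1, 73.2% below Brd7 and 76.4% below Phf10. For Arid1a it was 19.4%, so the non-overlap does not set the PBAF subunits apart from genes at large. The interval of Arid2 did overlap those of Smarca2 (0.677 to 0.825) and Smarcd2 (0.688 to 0.858), which are shared by several forms. Of the 4 measured BAF subunits, Arid1b, Dpf2 and Arid1a had ratios between 0.354 and 0.561, with the histone reader Dpf2 at 49.9 and 27.6 RPKM (0.553, 0.518 to 0.591). The fourth, Dpf3, went the other way at a low level, 0.541 and 1.82 RPKM (12 and 47 reads; 3.36, 1.75 to 6.96). The non-canonical BAF subunit Brd9 was at 15.1 and 16.2 RPKM (1.07, 0.965 to 1.19), and its partner Gltscr1l at 3.50 and 2.52 RPKM (0.718, 0.619 to 0.834). Among the subunits shared by several forms, the actin-related Actl6a (Baf53a), known to be needed for blood stem cell maintenance, was at 88.3 and 47.3 RPKM (0.535, 0.505 to 0.567). Actb, which is mainly a cytoskeletal actin, was at 3987 and 5869 RPKM and says little about the complex.

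**Figure D5:**
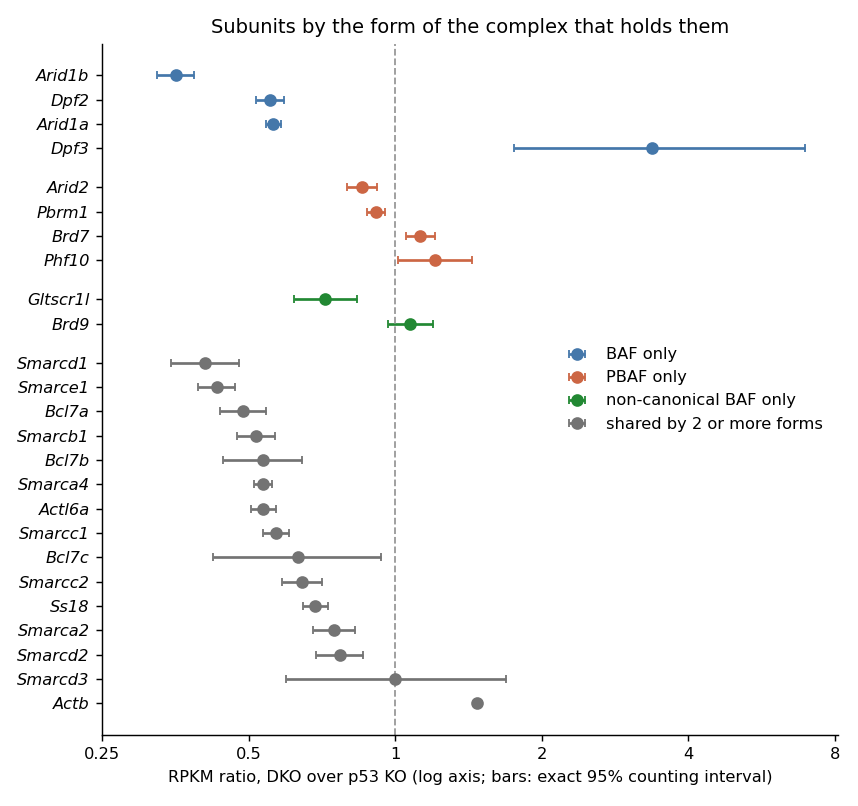
RPKM ratio of the 25 measured subunits, DKO over p53 KO (horizontal log axis), with exact 95% counting intervals, coloured by the form of the complex that holds each. The PBAF subunits lie between 0.853 and 1.21, the BAF subunits Arid1b, Dpf2 and Arid1a between 0.354 and 0.561, and Dpf3 rests on 12 and 47 reads.

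In the authors' deposited table, the GFOLD value, a log2 fold change drawn toward 0 for sampling error, was below 0 for 6 of the 10 subunits, where 22.9% of all genes measured were, and above 0 for 3, where 54.5% were. That table gave -0.47 for Smarce1, -0.43 for Smarcd1, -0.23 for Smarca4, -0.20 for Smarcb1, -0.17 for Arid1a and -0.11 for Smarcc1. In the same authors' deposited table Smarcc2 was at 0, Smarca2 at 0.02, Smarcd2 at 0.03 and Pbrm1 at 0.39. The order of the subunits on this scale, with Smarce1 and Smarcd1 lowest and Pbrm1 highest, was close to that of the RPKM ratios, and both scales come from the same reads. The median of the unshrunken log2 fold change in the authors' deposited table was -0.22 for the 10 subunits and 0.32 for all genes measured.

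Genes of the other remodeller families were counted by the same rule. Of 43 measured genes of the ISWI, CHD and NuRD, and INO80 and SRCAP/TIP60 families, 3 were at least 2-fold lower and 3 at least 2-fold higher, against 13.5% and 6.6% of all genes. Their median log2 difference was -0.43, beside -0.54 for all 25 measured SWI/SNF subunits and -0.79 for the 10 listed ones. In the ISWI list (10 measured, median -0.25) the largest differences were those of Cecr2 (3.51 and 0.283 RPKM), Baz1a (14.2 and 34.5) and Baz2b (26.0 and 11.2). In the CHD and NuRD list (19 measured, median -0.55) they were those of Chd7 (1.43 and 6.52 RPKM), Chd6 (7.52 and 3.18) and Chd2 (16.8 and 8.08). In the INO80 and SRCAP/TIP60 list (14 measured, median -0.40) they were those of Znhit1 (16.3 and 37.6 RPKM), Vps72 (61.3 and 32.6) and Dmap1 (20.2 and 11.5). No difference between these families and the SWI/SNF subunits was tested.

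The start sites of the subunit genes, which lie on chromosomes 4, 9, 10, 11, 14, 15 and 19, were compared with those of all genes. RefSeq windows of 300 bases (250 before and 50 after the start, build GRCm38.p6, while the expression files use mm9) were found for 9 of the 10 genes, not for Smarce1. Windows were matched by gene symbol, so a window may not belong to the transcript whose value is given, such as the short Smarca2 transcript. The 10 windows of these 9 genes held 4 to 48 CpG (median 33, against 7 over all 32851 windows), and that of Smarcd2, with 4, lay below the median of all windows. For the windows of Smarcd2, Smarcc1 and Smarcc2, the bases downstream of the start were not found in any GENCODE M21 transcript of the gene. A GC box (GGGCGG on either strand) was found in 10 of 10 windows (9 of 9 genes), against 35.7% of all windows. An ETS core (CCGGAA on either strand) was found in 5 of 10 windows (5 of 9 genes: Arid1a, Smarcc1, Pbrm1, Smarcd1 and Smarca2), against 14.9%. The windows of all genes were not matched to these in CpG count, so the shares do not set the subunits apart from other CpG-rich starts. CCAAT was found in 0 of the 10 windows (37.4% of all) and TATAAA in 1, that of Smarcd2 (13.6% of all). The 100 bases before the start are shown for the subunits with the lowest and highest ratio, Smarcd1 (chr15:99702187-99702286, plus strand) and Pbrm1 (chr14:31019038-31019137, plus strand), and for Smarca2 (chr19:26605060-26605159, plus strand), with GC boxes and ETS cores in capitals.
Smarcd1: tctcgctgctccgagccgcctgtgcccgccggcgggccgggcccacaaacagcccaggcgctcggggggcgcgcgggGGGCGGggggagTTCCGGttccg
Pbrm1: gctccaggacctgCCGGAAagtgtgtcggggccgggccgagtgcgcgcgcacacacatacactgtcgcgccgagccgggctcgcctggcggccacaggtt
Smarca2: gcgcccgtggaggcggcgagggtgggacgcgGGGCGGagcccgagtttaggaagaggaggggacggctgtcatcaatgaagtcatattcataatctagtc
Smarcd1 and Pbrm1, at opposite ends of the ratios, both carry an ETS core in this stretch, in opposite orientations. These matches are descriptions of letters, not of bound sites.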

How the data were processed

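Gene expression was measured by RNA-seq in 1 p53 KO and 1 Utx/p53 DKO library of LSK cells, grouped by genotype label. Per the labels' protocols, cDNA came from oligo-dT primed, SMART-amplified RNA (50 ng), which can distort low values. Build mm9, TopHat2 2.1.0 and bcl2fastq 1.8.4 are listed in the submitters' processing notes. Per the file headers, gfold 1.1.4 made the table in which the authors deposited RPKM values, a q-value (E-FDR), the GFOLD value and an unshrunken fold change, the last pair on a log2 scale. The q-value was 1 throughout and was not used. The RPKM columns were assigned by the order of libraries in the header, which calls them WT-LSK and KO-LSK. The sample titles give WT-LSK as p53 KO-LSK and KO-LSK as Utx/p53 DKO-LSK. Counting strand and multi-mapped reads are not given in the sources used here.

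Symbols were represented by the transcript with the highest mean RPKM, kept at a mean of at least 1 RPKM (11356 genes), and compared on log2(RPKM + 1), which understates changes of low genes. A 2-fold difference counted as higher or lower. Whole reads were recovered by searching the transcript length at which both values are whole and match the authors' log2 fold change (1 solution for 97.5% of 24644 transcripts with reads), tested on simulated data. Where several solutions remained, as for Pbrm1, Arid2 and Actb, the fewest reads were used. Intervals are Clopper-Pearson (ratios and shares) and conditional exact (ratios of ratios), from scipy 1.17.1. Gltscr1l was matched by RefSeq accession.

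Members and lists were chosen with earlier results of these data known. Named genes were the 10 subunits, the deleted genes, other subunits that were 2-fold different or paralogs of a listed one, and the 3 largest differences of each other remodeller list. Further subunits (Brd7, Phf10, Dpf2, Dpf3, Brd9, Gltscr1l, Actl6a, Actb and those in the closing part) and the grouping by form were chosen after their values were seen.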

Additional observations from a re-analysis of the deposited data

How the results depend on the processing

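Under all 13 alternatives tried 0 subunits were at least 2-fold higher, where 3.25% to 16.5% of all genes were. The count of subunits at least 2-fold lower, 2 as reported, was 0 under 6 settings, where 4.19% to 8.97% of all genes were lower. These were a pseudocount of 5, centring on all genes, on genes of like level or of like length, the gfold constants and a 3-fold rule. The count was 1 with upper-quartile scaling, where 11% of all genes were lower, 6 with equal summed RPKM (23.9% of all genes) and 6 with a 1.5-fold rule (29.6%), against 13.5% as reported. The subunits' median difference, -0.79 as reported, was -0.67 with a pseudocount of 5, -0.56 centred on all genes, -0.64 with upper-quartile scaling, -1.15 with equal summed RPKM, -0.22 with the gfold constants, -0.65 centred on level and -0.39 centred on length. Of the other subunits (15 measured, 13 for centring on length), 2 were lower and 1 higher with a pseudocount of 0.1, where 18.7% of all genes were lower and 7.97% higher. With equal summed RPKM 5 were lower (23.9% of all genes), and with a 1.5-fold rule 5 were lower (29.6%) and 1 higher (13%). After centring on all genes or on level 1 was higher (9.63% and 9.16% of all genes), and 2 were with the gfold constants (16.5%). Under each setting with a higher subunit Dpf3, on 12 and 47 reads, was among them, and with the gfold constants Actb was the other. 0 were lower with a pseudocount of 5 (4.19% of all genes), the gfold constants (6.27%), centring on length (8.97%) or a 3-fold rule (4.34%).

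As shares of whole reads, which are not per length, Smarca4 held 85.9% (p53 KO) and 81.4% (DKO) of its pair with Smarca2, Smarcc1 71.5% and 68.9% of its pair with Smarcc2, Smarcd2 58.5% and 72.7% of its pair with Smarcd1, Arid1a 80.9% and 87.1% of its pair with Arid1b, Pbrm1 69% and 85.2% of its pair with Arid1b, and Smarcd3 5.83% and 13.2% of its pair with Smarcd1. With the mean over all transcripts Smarca4 held 70.8% and 63.1% of its pair, and with the full-length Smarca2 row, an alternative chosen after seeing the data, 77.2% and 70.1%. No paired analysis was possible because each genotype has 1 library, and leaving out a library leaves no comparison.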

Other observations

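Subunits under a mean of 1 RPKM included those of the neuronal form of the complex. Actl6b (Baf53b), which replaces Actl6a in neurons, was at 0.151 RPKM in the p53 KO and 0.0973 RPKM in the DKO library, from 4 and 3 reads. Dpf1 (Baf45b) was at 0.128 and 0.176 RPKM, from 5 and 8 reads, and Ss18l1 (Crest) at 0.777 and 0.701 RPKM, from 58 and 61 reads. The counting intervals of these 3 ratios all held 1. Gltscr1, a non-canonical BAF subunit, was at 1.22 and 0.459 RPKM, from 112 and 49 reads, a ratio of 0.375 (0.263 to 0.529).

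The Bcl7 transcripts, which encode small subunits shared by several forms of the complex, all had ratios under 1, as 65.2% of all genes measured did. Bcl7a was at 13.8 RPKM in the p53 KO and 6.72 RPKM in the DKO library (ratio 0.486, 0.436 to 0.543), Bcl7b at 10.6 and 5.66 RPKM (0.534, 0.443 to 0.643) and Bcl7c at 3.88 and 2.44 RPKM (0.630, 0.423 to 0.932). Ss18, the subunit fused in synovial sarcoma, was at 52.4 and 35.9 RPKM (0.684, 0.645 to 0.726).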
